A study of Mus musculus with 5 samples.

Results

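Peaks that lie between genes on the autosomes were examined in the 3 deposited peak lists of a chromatin immunoprecipitation sequencing (ChIP-seq) study of stimulated mouse dendritic cells. A peak was taken when it lay on chromosome 1 to 19, started at or beyond 3.5 Mb, and was at distance 0 from neither neighbouring gene in the authors' columns, where a blank, as past the last gene of a chromosome, counts as no gene. This rule found 358 of 857 peaks (41.8%, 95% Wilson interval 38.5 to 45.1) in the H3K27ac list of wild-type cells, 335 of 844 (39.7%, 36.4 to 43.0) in the H3K27ac list of Egr1-deficient cells and 355 of 847 (41.9%, 38.6 to 45.3) in the EGR1 list of wild-type cells, or 1048 of 2548 over the lists. The intervals cover counting error over peaks only. Of the remaining autosomal peaks, 249, 239 and 248 lay inside a gene, and 147, 165 and 144 started below 3.5 Mb. Another 103, 105 and 100 lay on other chromosomes.

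The cells were dendritic cells derived from bone marrow of C57BL/6J mice, either wild type (WT) or lacking Egr1 (KO), cultured from the femur in GM-CSF at 10 ng/ml up to day 6. Every sample had received LPS (lipopolysaccharide, a bacterial ligand of TLR4) at 100 ng/ml together with 20 mM lactic acid for 24 h, so stimulated cells were not set against resting ones. The age of the mice, the Egr1 allele and the number of animals behind a sample are not stated by the labels. Each group was 1 library, so no value below has a replicate check and none was tested, and the 2 input samples were not analysed here. The lists hold no read counts, so depth is unknown.

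H3K27ac, acetylated lysine 27 of histone H3, is laid down by the acetyltransferases p300 and CBP on active promoters and on active enhancers, many of which lie between genes. In dendritic cells such distal elements are bound by lineage factors such as PU.1, and LPS adds acetylation at many of them. EGR1 is an immediate early transcription factor with zinc fingers that binds GC-rich DNA, with GCGTGGGCG as its classical site.

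Few of these peaks reached a start site listed by RefSeq, a count that the selection rule itself keeps low. Peaks inside a gene by the authors' columns were left out, so a peak over the start of such a gene could not be counted. A hit could come only from bases before such a start, or from a start that RefSeq places elsewhere. The counts that follow therefore do not measure a difference between peaks between genes and peaks inside genes. Windows from 250 bases before to 50 bases after each gene start, from RefSeq on GRCm38.p6 (the assembly of mm10), were overlapped by 3 WT H3K27ac, 3 KO H3K27ac and 4 EGR1 peaks, against 9, 7 and 9 of the peaks inside genes. Of the 4 windows with a WT peak, 3 are shown, because they are sequence under these peaks that the reference tables hold. The other, at chr4:118546889-118547188, belongs to another listed start of Gm40237 and had 32 bases under the WT peak. The first lies at chr4:118547156-118547455 on the plus strand, at a start of the long noncoding RNA Gm40237 between Tmem125 and Cfap57. The capitals mark GTGGGCG, the last 7 bases of the classical EGR1 site.
Gm40237: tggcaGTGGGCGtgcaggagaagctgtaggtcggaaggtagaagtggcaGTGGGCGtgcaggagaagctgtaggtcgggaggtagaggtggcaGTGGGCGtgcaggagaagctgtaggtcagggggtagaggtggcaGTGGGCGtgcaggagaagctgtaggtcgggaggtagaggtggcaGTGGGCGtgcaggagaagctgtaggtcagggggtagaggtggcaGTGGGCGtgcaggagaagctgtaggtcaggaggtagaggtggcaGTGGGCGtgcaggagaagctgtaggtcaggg
The next windows lie at chr1:191120652-191120951 and chr8:55114679-55114978, both on the plus strand, and their capitals mark the bases covered by the WT H3K27ac peak.
Gm46178: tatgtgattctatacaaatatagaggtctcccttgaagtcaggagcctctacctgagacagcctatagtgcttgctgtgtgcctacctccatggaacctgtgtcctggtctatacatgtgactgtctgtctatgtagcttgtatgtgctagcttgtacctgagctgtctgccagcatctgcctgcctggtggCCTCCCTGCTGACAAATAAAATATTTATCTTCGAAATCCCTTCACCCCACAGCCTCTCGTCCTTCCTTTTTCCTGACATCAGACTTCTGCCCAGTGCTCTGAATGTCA
Gm51571: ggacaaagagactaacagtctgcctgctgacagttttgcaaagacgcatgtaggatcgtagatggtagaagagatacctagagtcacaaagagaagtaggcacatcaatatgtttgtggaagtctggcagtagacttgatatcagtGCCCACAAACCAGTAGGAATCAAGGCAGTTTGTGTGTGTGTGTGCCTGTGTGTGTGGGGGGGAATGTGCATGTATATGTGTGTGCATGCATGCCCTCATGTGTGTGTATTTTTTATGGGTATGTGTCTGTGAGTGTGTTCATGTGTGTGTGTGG

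The Gm40237 window was a tandem repeat in which 7 copies of GTGGGCG followed each other every 44 bp, and bases 88 bp apart were identical at 97.6% of positions. Searched on both strands, GTGGGCG was found in 2617 of 32851 RefSeq windows (7.97%), and this window was the only one of them with as many as 7 copies. The whole site GCGTGGGCG, which contains GTGGGCG, was found in 201 windows (0.612%) and not in this one. A WT H3K27ac peak at chr4:118547157-118547495 covered 299 of its 300 bases. That peak scored 12.03 in WT H3K27ac, 12.43 in the KO list and 11.81 in EGR1, so the lists differed little there and the EGR1 score was the lowest. The score is the authors' peak shape score, whose scaling the labels do not state, and it serves only to describe and rank peaks. A second WT H3K27ac peak, at chr4:118547809-118548108, also lay in Gm40237 by RefSeq coordinates and scored 8.73, 8.61 and 8.78 in the same order. In the Gm46178 window, beside Batf3, a transcription factor of cross-presenting dendritic cells, 108 bases lay under a peak and neither motif was found. The Gm51571 window had 154 bases under a WT peak and 6 overlapping matches to 5 TG pairs in a row, a run held by 1.61% of windows. Its peak scored 1.73 in WT H3K27ac and 1.92 in EGR1 and had no partner in KO H3K27ac.

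The peaks lay mostly within 50 kb of a named gene. By the smaller of the authors' gene distances, 71 WT H3K27ac peaks (19.8%) were under 5 kb from a gene, 213 (59.5%) were at 5 to 50 kb and 74 (20.7%) were beyond 50 kb. The KO H3K27ac list had 70 (20.9%), 199 (59.4%) and 66 (19.7%), and the EGR1 list had 75 (21.1%), 206 (58.0%) and 74 (20.8%). Each share lay inside the counting interval of the same class in the WT H3K27ac list. The nearer gene lay at a median of 19518 bp in the WT H3K27ac list, 19253 bp in the KO list and 18935 bp in the EGR1 list. A peak at chr12:113424293-113424635 was the closest in WT H3K27ac, 9 bp from Gm25747 and 1562 bp from Ighm, the heavy chain constant region of IgM, and it scored 1.92. The farthest, at chr18:85697950-85698269, lay 651316 bp from Gm25453 and 746425 bp from Timm21, a subunit of a mitochondrial import complex, and scored 6.17 (WT H3K27ac), 6.04 (KO H3K27ac) and 5.90 (EGR1). The next farthest lay on chromosome 13 beside Rpl34-ps2 (411318 bp, score 2.31) and on chromosome 5 beside Gm22974 (392561 bp, score 4.22).

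**Figure D1:**
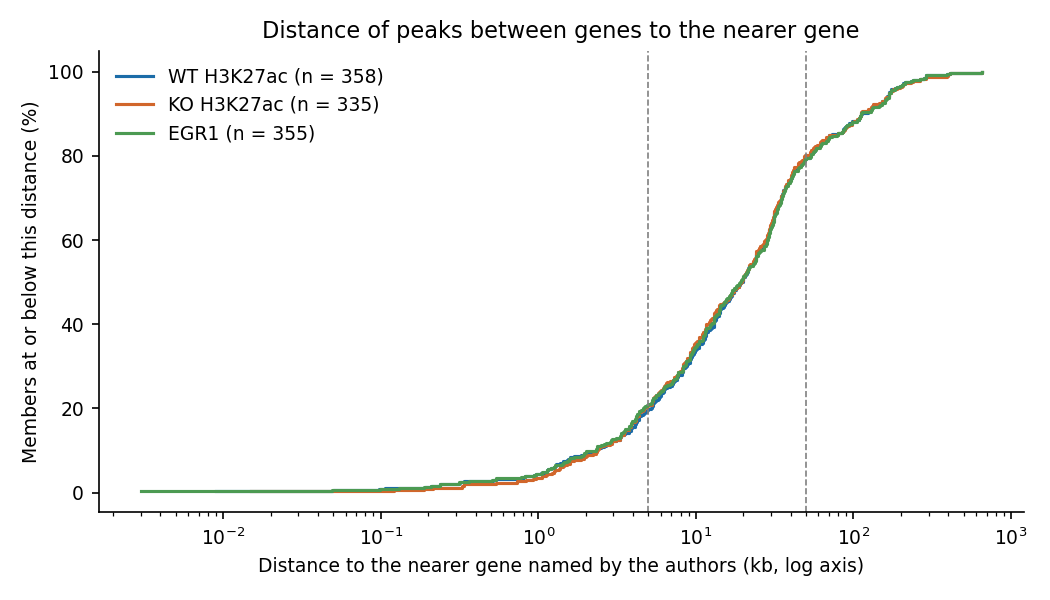
Cumulative share of peaks between genes (percent, vertical axis) by the distance to the nearer named gene (kb, logarithmic horizontal axis), 1 line per list. The lines of the 3 lists run together, with medians of 19518, 19253 and 18935 bp.

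The median score was highest in the middle distance class. In WT H3K27ac the median score was 2.29 under 5 kb, 3.18 at 5 to 50 kb and 2.32 beyond 50 kb. The KO H3K27ac medians were 2.31, 3.32 and 2.52, and the EGR1 medians were 2.18, 3.18 and 2.32, so the order of the middle class above the others was the same in each list. The upper quartile was instead highest under 5 kb, at 5.58 against 5.06 at 5 to 50 kb in WT H3K27ac, 5.71 against 5.30 in the KO list and 5.37 against 4.94 in EGR1. A score of 10 or more was reached by 10 of the 71 WT H3K27ac peaks under 5 kb, 21 of the 213 at 5 to 50 kb and 5 of the 74 beyond. A score of 3 or more was reached by 42.3%, 51.2% and 33.8% of the WT H3K27ac peaks of these classes. Over all distances the medians were 2.75, 2.97 and 2.77 in the same order of lists, beside 2.93, 2.92 and 2.82 for peaks inside genes. Peaks were short and uniform: median lengths were 322 bp in WT H3K27ac, 308 bp in the KO list and 321 bp in EGR1.

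**Figure D2:**
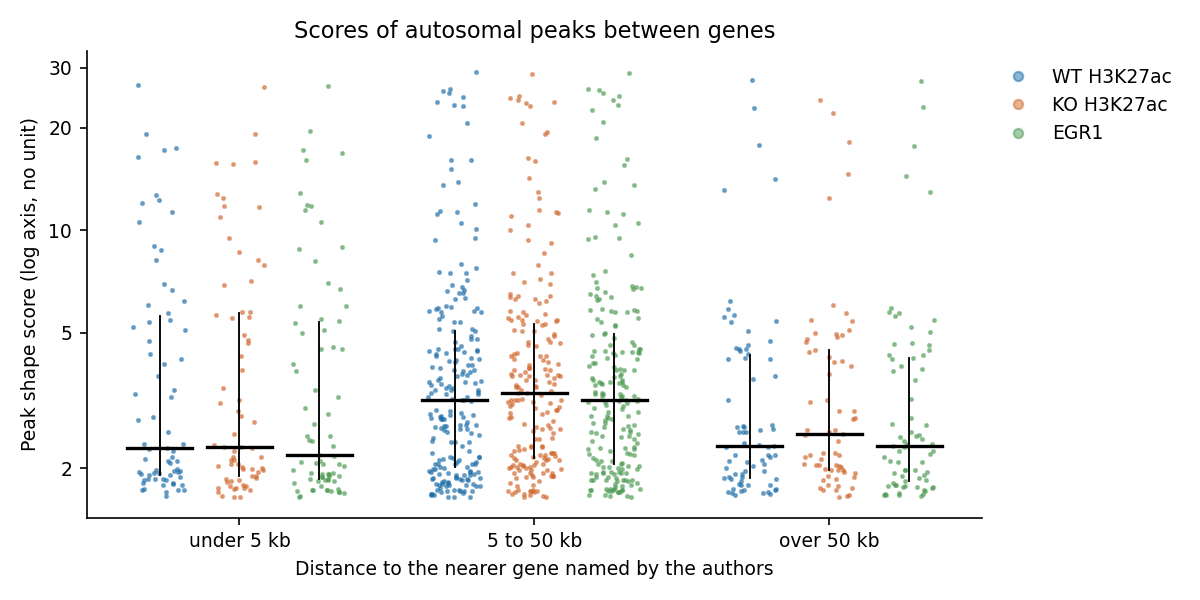
Peak shape score (vertical axis, logarithmic) of every peak between genes in the distance classes under 5 kb, 5 to 50 kb and over 50 kb, 1 point per peak, coloured by list, with a horizontal bar at each median and a vertical bar from the lower to the upper quartile. The medians of the 5 to 50 kb class, 3.18, 3.32 and 3.18, lie above those of the other classes.

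The strongest peaks were shared by the lists. The highest, at chr6:103649021-103649346, scored 29.11 in WT H3K27ac, 28.64 in the KO list and 28.82 in EGR1. Its neighbours as the authors name them are Gm44436 (31564 bp) and Gm25656 (183166 bp), while by RefSeq coordinates it lies inside Chl1, a neural cell adhesion molecule. The second, at chr3:56575441-56575763, 130028 bp from Gm25727, scored 27.65, 24.06 and 27.48 in the same order, so it was lowest in KO H3K27ac. Under 5 kb from a gene, the peak at chr2:98664910-98665251 was the highest and lay 826 bp from Gm10801 and 1295 bp from Gm10800 and scored 26.73, 26.29 and 26.39. The next of that class lay 3295 bp past Tcstv3 at the end of chromosome 13 (19.08, 19.17 and 19.58) and 208 bp from Gm13532 on chromosome 2 (17.40, 15.87 and 17.15). The tenth, at chr17:13305948-13306269, 48302 bp from Tcp10c, scored 23.18, 23.08 and 22.53. The other 6 of the 10 highest lay at chromosome ends, beyond the last gene that the authors name. All 10 scored lower in KO than in WT H3K27ac, and 5 of them scored lower in EGR1 than in WT H3K27ac. They were picked by their WT H3K27ac score, which by itself favours lower scores in another list. These counts therefore do not measure a difference between the lists. The strongest peaks inside genes were not compared in this way.

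Peaks past the last named gene stood out by score. In WT H3K27ac there were 18 on 17 chromosomes, 2 of them on chromosome 16. Their median score was 18.4, and peaks with a gene on both sides had a median of 2.65. The same medians were 18.1 and 2.87 in KO H3K27ac, with 19 such peaks, and 18.6 and 2.61 in EGR1, with 18. Of the 36 WT H3K27ac peaks that scored 10 or more, 13 were of this kind. On chromosome 12, the peak at chr12:120028681-120029002 lay 27712 bp past Gm27236 and scored 25.91 in WT H3K27ac, 24.35 in the KO list and 26.02 in EGR1. On chromosome 19, the peak at chr19:61331263-61331582 lay 34193 bp past Gm21060 and scored 25.62, 24.83 and 25.73. On chromosome 7, a peak 16949 bp past Mrgprd, a receptor of sensory neurons, scored 23.24, 20.65 and 23.35. These 3 peaks were highest in EGR1 and lowest in KO H3K27ac. Chromosome 18 ended with a peak scoring 25.25, 23.77 and 25.22, chromosome 3 with one scoring 24.58, 24.01 and 24.79, and chromosome 1 with one scoring 23.74, 23.60 and 24.10.

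Weaker peaks of the same kind lay on chromosome 15, past Mucl2, with scores of 4.01, 3.78 and 3.92, and on chromosome 16, where the lower of the pair scored 2.81, 2.64 and 2.84. That last peak started before the end of the last RefSeq gene of its chromosome, while each of the others lay past the last RefSeq gene too. Chromosome 9 had none in any list. Chromosome 4 had one in the KO H3K27ac list alone, which scored 1.75 and lay by Vmn2r125, a vomeronasal receptor.

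**Figure D3:**
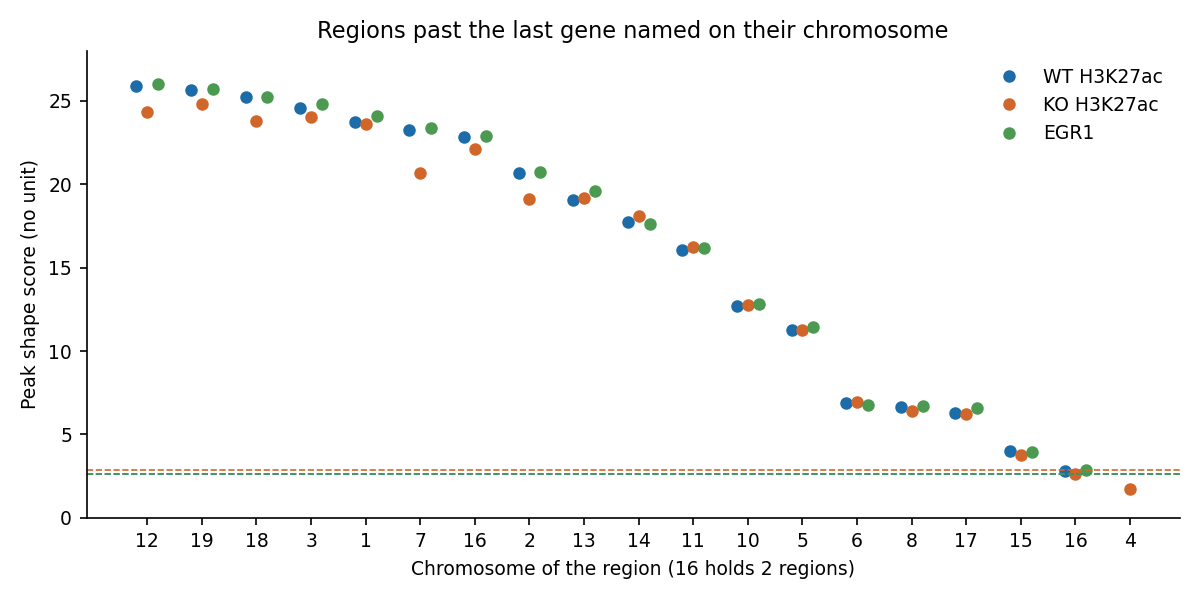
Peak shape score of each peak past the last named gene of its chromosome, by chromosome, 1 point per list, with dashed lines at the medians of peaks with a gene on both sides (2.65, 2.87 and 2.61). Scores run from 1.75 on chromosome 4, in KO H3K27ac alone, to 26.02 on chromosome 12 in EGR1, and the points of a peak lie close together.

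Most intergenic peaks of a list overlapped a peak of each other list. Of the WT H3K27ac peaks between genes, 299 of 358 (83.5%, 79.3 to 87.0) shared at least 1 bp with a KO H3K27ac peak, beside 86.8% of all WT H3K27ac peaks. An EGR1 peak overlapped 340 (94.97%), beside 95.9% of all, and both other lists overlapped 293 (81.8%), beside 85.2% of all. From the KO H3K27ac list, 299 of 335 (89.3%) overlapped a WT H3K27ac peak, beside 88.3% of all. Another 302 (90.1%) overlapped an EGR1 peak, beside 88.2%, and 293 (87.5%) overlapped both, beside 86.6%. From the EGR1 list, 340 of 355 (95.8%) overlapped a WT H3K27ac peak, beside 97.0% of all. KO H3K27ac peaks overlapped 302 (85.1%), beside 87.7%, and both H3K27ac lists overlapped 294 (82.8%), beside 86.3%. Peaks between genes were thus within 4 percentage points of all peaks in every pair, which is not a result about these peaks.

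The overlap followed the score. In WT H3K27ac, 54 of 105 peaks scoring under 2 (51.4%, 42.0 to 60.8) and 81 of 89 scoring 2 to 3 (91.0%, 83.3 to 95.4) had a KO H3K27ac partner. All 164 peaks scoring 3 or more had one. Under a score of 3, 135 of 194 peaks between genes (69.6%, 62.8 to 75.6) and 96 of 129 inside genes (74.4%, 66.3 to 81.2) had one, so the dependence on score was not particular to intergenic peaks. Every one of the 167 KO H3K27ac and 167 EGR1 peaks at that score also overlapped a peak of each other list. By distance class, the WT H3K27ac peaks with a KO partner were 85.9% under 5 kb, 85.0% at 5 to 50 kb and 77.0% beyond 50 kb, and their counting intervals overlapped. Among peaks scoring under 3 the shares were 31 of 41 (75.6%), 72 of 104 (69.2%) and 32 of 49 (65.3%), again with overlapping intervals, and at 3 or more every class was at 100%.

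**Figure D4:**
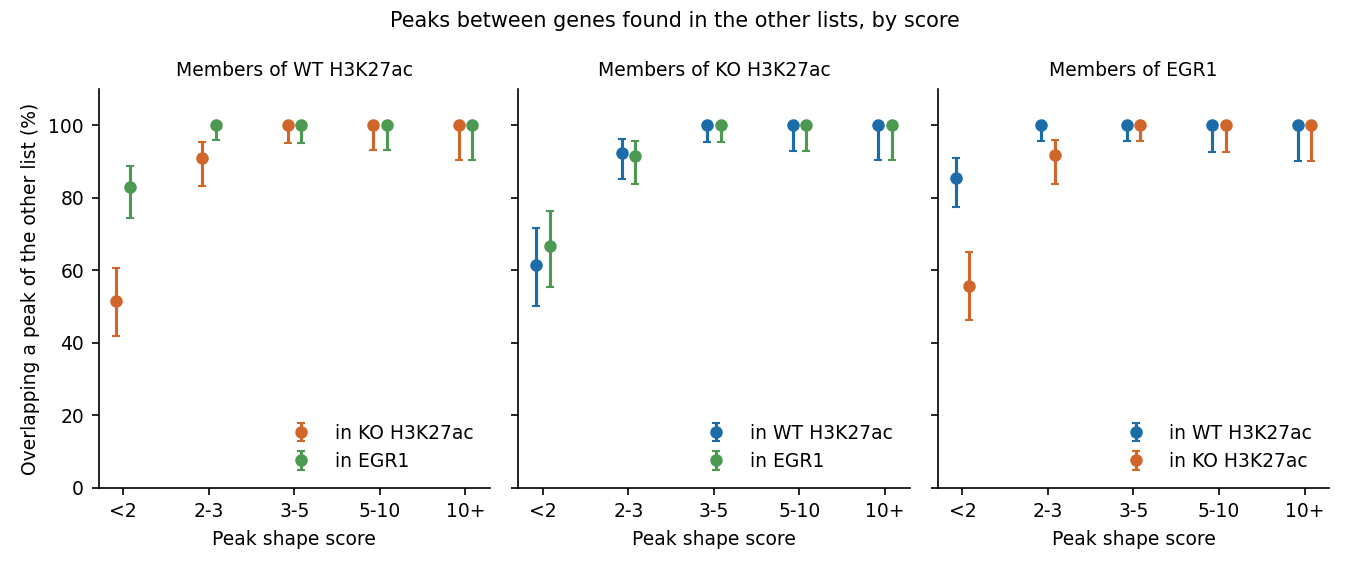
Share of peaks between genes (percent, vertical axis) that overlap a peak of another list, by score class (horizontal axis), with 95% Wilson intervals. Of the WT H3K27ac peaks scoring under 2, 51.4% have a KO H3K27ac partner, and every share is 100% from a score of 3 upwards.

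Merging the lists gave 398 intergenic regions. All 3 lists had a peak in 292 of them (73.4%), with a median highest score of 3.57. WT H3K27ac and EGR1 shared 46 regions without a KO H3K27ac peak, and 27 regions were found in KO H3K27ac alone. A further 12 were found in WT H3K27ac alone, 7 in EGR1 alone, 8 in KO H3K27ac and EGR1, and 6 in the H3K27ac lists only. These region counts were not made over all peaks, so they have no background of their own. Read from the WT H3K27ac list, 59 of 358 peaks between genes and 113 of all 857 lacked a KO partner. A WT H3K27ac partner was lacking for 36 of 335 KO H3K27ac peaks between genes and 99 of all 844. In the EGR1 list 15 of 355 and 25 of all 847 lacked one. These counts are the complements of the shares above. Regions missing from a list scored low, and none had a score above 2.91. That value belonged to the highest region without a KO peak, at chr6:137002807-137003157, 15408 bp from Gm44406 and 51667 bp from Rerg, a Ras-like GTPase. The next, scoring 2.25 and 2.22, lay between Gm8734 and Gm20586 on chromosome 8 and between Gm10552 and Gm17017 on chromosome 1. Each of these region scores is the highest over the lists. The chromosome 1 region scored 2.02 in WT H3K27ac and 2.22 in EGR1, and by RefSeq coordinates it lay in the protein-coding gene Sp140.

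Among regions found in KO H3K27ac alone, the highest scored 2.17, at chr7:64084647-64084969 between Gm20670 and Trpm1, a cation channel of retinal bipolar cells. Another in the same interval scored 2.06, and one at chr2:181919061-181919304, between Gm5466 and Gm14496, scored 2.12. The highest in WT H3K27ac alone, at chr1:193632728-193633058, scored 1.83 and lay 125197 bp from Mir205. The next lay by Rny3, a gene of a small cytoplasmic RNA, on chromosome 6 (1.73) and between Gm45653 and Gm23128 on chromosome 8 (1.72). In EGR1 alone the highest scored 1.78, 1.77 and 1.70, the last of them 1928 bp from Kcne2, a potassium channel subunit. With 1 library per group, presence in 1 list cannot be told apart from a peak just below the calling threshold in another.

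Where a peak had exactly 1 partner in each direction, the lists agreed closely in rank. Over 297 WT and KO H3K27ac pairs, the median difference in score, KO minus WT, was -0.04, and 165 pairs (55.6%) were lower in KO. Over the 214 pairs inside genes it was -0.07, with 56.1% lower in KO, so the intergenic pairs did not stand apart. Among the 36 intergenic pairs whose WT peak scored 10 or more, the median was -0.46 and 27 of the 36 were lower in KO. Picking pairs by a high WT score by itself favours lower KO scores. Pairs inside genes were not split by score, so the values for the 36 pairs have no counterpart there. The lowest intergenic difference, -3.59, was at the chromosome 3 peak beside Gm25727 named above. The next, -2.59, was at the chromosome 7 peak past Mrgprd. The highest, 1.72, 1.64 and 1.10, were all in 1 run of peaks on chromosome 13 between CT009718.2 and CT009718.7. By RefSeq coordinates the peaks of that run lay inside a pseudogene, Gm20590. Spearman's rho across the 297 pairs was 0.96, as a description over peaks, which are not replicates.

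KO H3K27ac peaks were shorter than their WT partners in 270 of the 297 pairs (90.9%), by a median of 13 bp. The same median of 13 bp was found inside genes, where 173 pairs (80.8%) were shorter in KO. Over 336 WT H3K27ac and EGR1 pairs the median score difference, EGR1 minus H3K27ac, was -0.03, and 194 pairs (57.7%) were lower in EGR1. Their median length difference was -2 bp, the median distance between centres was 1 bp and rho was 0.99. WT and KO H3K27ac centres lay a median of 6 bp apart. In length, centre and rank the EGR1 list thus lay closer to the WT H3K27ac list than the KO H3K27ac list did, while the median score differences, -0.03 and -0.04, and the shares of lower pairs were much alike. The same held inside genes, with length differences of -1 bp (EGR1) and -13 bp (KO), centres 2 and 7 bp apart, and rho 0.98 and 0.94. It was thus not particular to peaks between genes. With 1 library per group, genotype and library cannot be told apart.

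**Figure D5:**
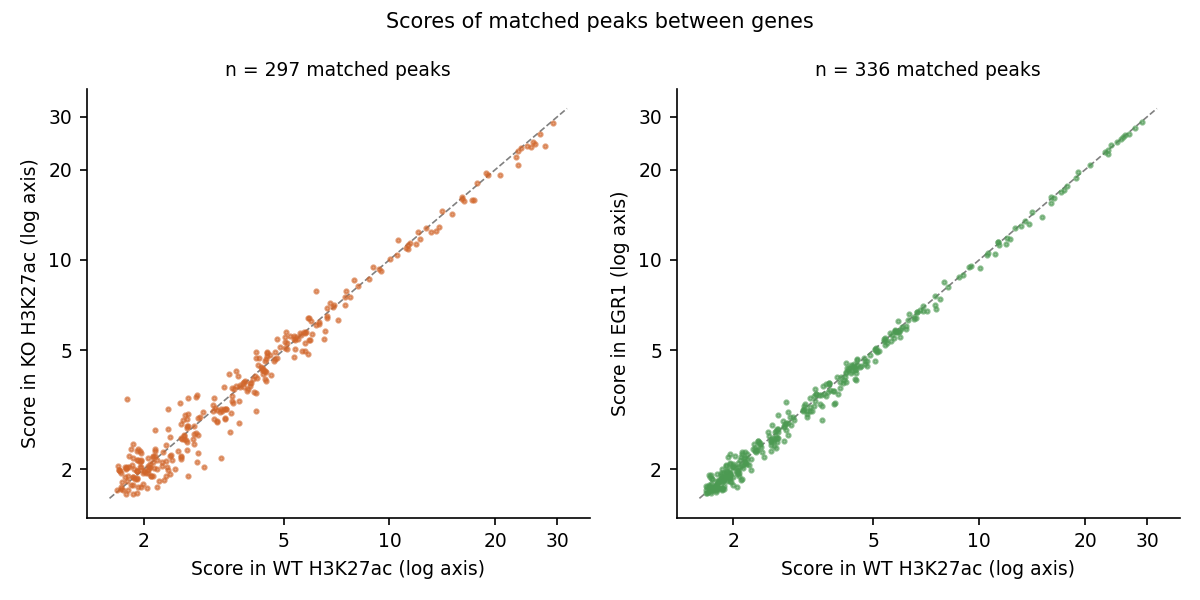
Scores of matched peaks between genes on logarithmic axes, WT H3K27ac on the horizontal axis and KO H3K27ac or EGR1 on the vertical axis, 1 point per pair and a line of equality. The points lie along the line, with 297 KO pairs (rho 0.96) and 336 EGR1 pairs (rho 0.99).

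Some of the peaks came in runs. In WT H3K27ac, 68 peaks (18.99%) had another within 10 kb, as had 64 (19.1%) in KO H3K27ac and 66 (18.6%) in EGR1, so the 358, 335 and 355 peaks made 311, 290 and 309 loci. The longest run lay at chr6:47744353-47778301, 3322 bp from Rny3, with 11 WT H3K27ac, 9 KO H3K27ac and 10 EGR1 peaks. Its WT scores ran from 1.73 to 5.36, and 8 of its 11 WT peaks had a KO partner. A run of 6 at chr2:181917647-181931482, between Gm5466 and Gm14496, scored 1.95 to 7.50, and all 6 had partners in both other lists. The run of 5 at chr13:74528477-74530696 scored 5.72, 1.79, 2.56, 6.17 and 10.59 from low to high coordinate in WT H3K27ac. Its KO H3K27ac partners scored 5.74, 3.43, 2.16, 7.89 and 11.69, higher than WT in 4 of the 5, and its EGR1 partners 5.49, 1.93, 2.41, 6.00 and 10.56. By RefSeq coordinates all 5 WT peaks of this run lay in the pseudogene Gm20590. A run of 4 at chr3:8244587-8246593, between Gm7103 and Gm5841, reached 5.76 in WT, 4.95 in KO and 5.79 in EGR1. Another run of 4, at chr8:55363530-55374266 between Gm8734 and Gm20586, reached 2.33, and 2 of its peaks had a KO partner.

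Most of these peaks, like most of all peaks, had a predicted gene on at least 1 side. A gene with a Gm number was a neighbour of 249 WT H3K27ac peaks between genes (69.6%), beside 69.1% of all WT H3K27ac peaks, a share near the background. RIKEN cDNA genes were beside 26 (7.26%, against 6.53% of all), with the highest score, 22.85, past B230307C23Rik at the end of chromosome 16. Genes named after sequenced clones were beside 45 (12.6%, 9.53 to 16.4), against 8.17% of all peaks and 5.62% of those inside genes. The highest of them, on chromosome 12 between CT009764.1 and AC131762.1, scored 18.85 (WT H3K27ac), 19.46 (KO H3K27ac) and 18.69 (EGR1). Pseudogenes with -ps in their names were beside 19 (5.31%, 3.42 to 8.14), below the 11.6% of all peaks and near the 5.22% inside genes. The highest of these lay 212464 bp past Olfr277-ps1, an olfactory receptor pseudogene, and scored 17.72, 18.12 and 17.62.

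Vomeronasal receptor genes, which encode pheromone receptors, were beside 5 peaks (1.40%, against 3.03% of all). The highest, by Vmn1r-ps60, scored 6.66, 6.92 and 6.72. Ribosomal protein genes and pseudogenes were beside 7 (1.955%, against 1.87%), with the highest at Rpl31-ps23 scoring 6.94, 7.09 and 6.99. MicroRNA genes were beside 13 (3.63%, against 2.22%). Of these 13, 9 had a KO partner, beside 83.5% of WT H3K27ac peaks between genes and 86.8% of all WT H3K27ac peaks. Those without a partner scored low, at 1.97, 1.83, 1.74 and 1.69. The highest of the 13, 47052 bp from Mir6356 on chromosome 18, scored 7.12, 6.28 and 6.75. A peak at chr6:51047350-51047670, 222141 bp from Mir148a, scored 2.61, 2.58 and 2.40.

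Beside Ccr1, a receptor for inflammatory chemokines such as CCL3, there were 3 peaks on chromosome 9. In WT H3K27ac, the KO list and EGR1, the peak at chr9:123872892-123873210 (88913 bp) scored 5.20, 5.55 and 4.98. The peak at chr9:123924349-123924675 (37448 bp) scored 4.58, 4.80 and 4.38, and that at chr9:123925999-123926324 (35799 bp) scored 2.53, 3.32 and 2.58. The KO score was the highest at each of the 3, which were chosen after their values were seen. On the other side their neighbour was AC242682.1, under 5 kb from the first peak and 55375 and 57025 bp from the others. Ccr1 was thus not the nearer gene of the first peak. By RefSeq coordinates the last peak lay in Gm51701, a long noncoding RNA gene.

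Of 160 genes in 9 lists for these cells and this stimulus, 3 were the named neighbour of a peak between genes within 50 kb. A listed gene beyond the neighbours that the authors name for a peak was not counted, however close. The 6 WT H3K27ac peaks concerned, of 358, stand beside 9 of all 857 peaks (1.05%). All 3 genes came from the list of 24 identity markers of dendritic and myeloid cells. Near Batf3, the peak at chr1:191120844-191121183 (11898 bp) scored 2.79 in WT H3K27ac, 2.62 in the KO list and 2.77 in EGR1. Near Cd209a, a lectin of dendritic cells, the peak at chr8:3754295-3754632 (5310 bp) scored 5.60, 5.62 and 5.36. Near Csf2ra, a chain of the receptor for GM-CSF, the peak at chr19:61199592-61199912 (24489 bp) scored 7.75, 7.50 and 7.39. On its other side, peaks 37235 and 38511 bp away scored 2.05, 1.73 and 1.95, then 5.91, 6.38 and 5.80, and one more scored 1.71 in WT H3K27ac alone. A further peak 35278 bp away, at chr19:61263697-61263987, scored 1.72 in the KO list, was also called in EGR1 and had no WT H3K27ac partner. The lists of LPS-induced cytokines, TLR4 and NF-kB genes, interferon response and maturation had 0 peaks with a listed gene as neighbour in each library. The same held for the lists of the EGR family and immediate early genes, lactate handling and glycolysis, housekeeping genes and other cells of the culture. Of the 24 identity markers 21 were the neighbour of no peak between genes, so the peaks give little by which to check the labelled cell type.

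Whether a peak lay between genes depended on the annotation. RefSeq genes covered 93 WT H3K27ac (26.0%, 21.7 to 30.8), 86 KO H3K27ac (25.7%) and 94 EGR1 peaks (26.5%) that the authors' gene columns place between genes. In WT H3K27ac, 49 of the 93 lay in protein-coding genes, 34 in long noncoding RNA genes and 7 in pseudogenes. Among them, besides the Chl1 peak, was one in Cdk8, a kinase of the Mediator complex, which scored 13.83, 12.91 and 13.16. One in Gnb1l, beside Tbx1, scored 7.52, 7.87 and 6.86. The peak with the lowest start taken in WT H3K27ac, at chr8:3556141-3556462 by C330021F23Rik, scored 2.65, and the nearest peak below 3.5 Mb, at chr13:3373512-3373785, scored 3.03. The peaks on either side of 5 kb lay 4946 bp from Aadac (score 5.09) and 5224 bp from Wasf3 (1.99). Those on either side of 50 kb lay 49244 bp from Gm13175 (1.82) and 50003 bp from Dirc2 (1.70).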

How the data were processed

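ChIP-seq peak lists of 3 samples were analysed, 1 each for WT H3K27ac, KO H3K27ac and WT EGR1, with groups taken from the sample titles. Chromatin was cut enzymatically and precipitated, per the labels' protocols. The build was mm10, as the submitters' processing notes list it. Neither the labels nor the files name an aligner or peak caller, or say how input DNA was used. Per the file headers, the authors deposited a peak shape score, a p-value, a length and, where there is one on that side, the neighbouring gene and its distance on each side of a peak. The p-value was read but not used. Since each library was called separately at a threshold, a weak peak can pass it in 1 list and miss it in another.

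A distance of 0 was read as inside a gene. Overlap needed 1 bp, and runs joined peaks within 10 kb. RefSeq genes of GRCm38.p6 (49997, of which 46705 on autosomes were kept) gave other coordinates, and 373 of 576 neighbour names matched a symbol, with 11 more among older symbols. No test was run, with 1 library per group. Regions named are the 10 highest, the 3 highest of each distance class and of each single-list pattern, the 5 largest runs, the 3 farthest from a gene, those at each threshold, those near a list gene and the highest of each family with 5 or more peaks. One further family of neighbouring genes is not reported here. The Gm40237, Mir148a, Chl1-, Cdk8- and Gnb1l-overlapping peaks, further chromosome-end peaks, the largest differences and the Ccr1 peaks were chosen after their values were seen. The regions and gene lists were chosen with earlier results of these data known. Alternatives covered the score, start, overlap, spacing and gene coordinates. Scripts were tested on simulated data. The work used matplotlib 3.10.9, scipy 1.17.1, numpy 2.4.6, pandas 2.3.3 and Python 3.11.15.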

Additional observations from a re-analysis of the deposited data

How the results depend on the processing

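Of 124 values recomputed for 53 results, 88 stayed within the counting interval or 1.5 times the count and 36 moved. Only the KO minus WT differences in score and length could change sign, and 0 of them did. No paired analysis was possible because each group is 1 library. Depth is unknown, so how it limits weak peaks was not tested. At a score of 3 or more, 164 WT H3K27ac, 167 KO H3K27ac and 167 EGR1 peaks were left. Their shares at 5 to 50 kb became 66.5%, 67.7% and 67.1%, those beyond 50 kb became 15.2%, 15.0% and 15.0%, and every pairwise overlap became 100%. Among pairs picked by a WT score of 3 or more, which favours lower KO scores, the median KO minus WT difference became -0.09. By RefSeq coordinates the set of peaks itself changed, to 310 in WT H3K27ac and 307 in EGR1. It left out peaks inside RefSeq genes and took in others that the authors place inside a gene. In this set the share under 5 kb was 24.5% in WT H3K27ac and 25.7% in EGR1. Within 1 kb of another peak lay 11.7%, 13.4% and 11.5% in the order WT H3K27ac, KO H3K27ac, EGR1. With the nearer gene only, and in that order, Gm genes stood beside 52.2%, 50.7% and 51.8%, RIKEN genes 3.63%, 4.18% and 3.66%, clone-named genes 9.50%, 9.55% and 9.86%, microRNA genes 1.40%, 1.49% and 1.13%, and -ps pseudogenes 3.35%, 4.18% and 3.38%.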

Other observations

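The intervals between the neighbouring genes were wide. Over the 340 WT H3K27ac peaks with a gene on both sides the median interval was 104347 bp, and 29 lay in intervals over 500 kb. The KO H3K27ac and EGR1 medians were 93150 and 102436 bp, with 25 and 26 peaks in such intervals. Chromosome 6 held the most WT H3K27ac peaks between genes, 32, and chromosome 11 the fewest, 9. On chromosome 3 there were 31 between genes and 12 inside genes, and on chromosome 13 there were 19 and 24.

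Outside the 5 largest runs, 3 WT H3K27ac peaks at chr15:75085489-75087008, 21149 bp from Ly6c2, a surface marker gene of monocytes and T cells, scored 10.05, 4.18 and 16.04 from low to high coordinate. Their partners scored 10.03, 3.59 and 15.92 in KO H3K27ac and 9.40, 4.20 and 15.48 in EGR1. This run was chosen after its values were seen.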
